A study of Mus musculus with 5 samples.

Results

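The antioxidant and redox genes considered here were Sod1, Sod2, Cat, Gpx1, Prdx1, Prdx2, Txn1, Txnip, Nfe2l2 and Gclm. Their probe sets were taken from the deposited array values wherever the platform annotation gave a probe set to exactly 1 of these 10 genes. The rule found 22 of 45037 probe sets, which read 9 of the 10 genes, out of 18193 genes that were read by at least 1 such probe set. Prdx1 had no probe set of its own, since each of its 5 probe sets is also annotated to Gm21399, and those are described separately. Between genotypes, 0 of 9 genes were called on the probe set with their highest mean value, against 3% of all genes. Single further probe sets of Sod2, Cat and Gclm were called higher and 1 of Sod1 lower in Atxn1L null HSCs. These were 4 of 22 (18.2%), against 2.38% of all probe sets. With a mean value of at least 5 they were 3 of 17 (17.6%), against 7.21%. The lowest adjusted p in limma was 0.308, and the Cat and Sod1 calls ended in most fits with 1 array left out.

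The study compared purified hematopoietic stem cells (HSCs) of Atxn1L-null mice with those of wild-type (WT) mice, both on a C57Bl/6 background and labelled as 6 to 8 weeks old. The cells lacked lineage markers, carried Sca-1, c-Kit and CD150, and excluded Hoechst dye (the side population). Cells were pooled for each Affymetrix MOE430.2 array, and 2 arrays were hybridized with RNA from Atxn1L null HSCs and 3 with RNA from WT HSCs. The null allele is present in every cell of the animal, the sources used here do not give how many mice went into a pool, and p-values measure only the spread between pools.

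HSCs are known to keep reactive oxygen species low, and mice that lack regulators of oxidative defense, such as the FoxO transcription factors, lose quiescent HSCs. Superoxide dismutases turn superoxide into hydrogen peroxide, which catalase, glutathione peroxidases and peroxiredoxins then remove. Thioredoxin and glutathione supply the reducing power for this, and Nrf2, encoded by Nfe2l2, switches on many of the genes when its inhibitor Keap1 releases it.

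Nrf2 binds the antioxidant response element, whose core was searched as TGACNNNGC on both strands of the RefSeq promoters (GRCm38.p6, from 250 bases before to 50 bases after the start of a gene). All 10 genes had a promoter in that set. Any promoters of these 10 genes on a chromosome set aside beforehand were left out of it, while those of other genes there were kept. The core was found in 4 of the 10 promoters and in 12.4% of all 32851 promoters of this length. The 31 bases around each match are shown so that the letters matched can be compared, with the match in capitals, here in its reverse-strand form for Prdx1, Gclm and Sod1.
Prdx1, chr4:116685455-116685485, plus strand: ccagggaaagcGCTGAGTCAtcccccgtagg
Gclm, chr3:122245412-122245442, plus strand: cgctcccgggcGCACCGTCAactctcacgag
Sod1, chr16:90220695-90220725, plus strand: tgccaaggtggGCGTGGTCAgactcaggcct
Nfe2l2, chr2:75704883-75704913, minus strand: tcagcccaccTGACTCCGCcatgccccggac
The core of the FoxO site, searched as GTAAACA on both strands, was found in 1 of the 10 promoters, that of Txnip, and in 3.65% of all promoters.
Txnip, chr3:96557824-96557854, plus strand: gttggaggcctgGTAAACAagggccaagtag
The GC box GGGCGG, again on both strands and with overlapping matches counted, was found in all 10 promoters and in 35.7% of all promoters. The promoters of the 2 genes with the most stable calls below are shown whole, with GC boxes and the antioxidant response element core in capitals.
Sod2, chr17:13007589-13007888, plus strand: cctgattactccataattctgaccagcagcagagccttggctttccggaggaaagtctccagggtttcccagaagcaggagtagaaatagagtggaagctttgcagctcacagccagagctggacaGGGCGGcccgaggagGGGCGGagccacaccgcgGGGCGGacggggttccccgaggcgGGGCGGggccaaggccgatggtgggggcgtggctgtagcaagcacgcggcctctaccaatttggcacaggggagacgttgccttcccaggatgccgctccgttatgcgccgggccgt
Gclm, chr3:122245307-122245606, plus strand: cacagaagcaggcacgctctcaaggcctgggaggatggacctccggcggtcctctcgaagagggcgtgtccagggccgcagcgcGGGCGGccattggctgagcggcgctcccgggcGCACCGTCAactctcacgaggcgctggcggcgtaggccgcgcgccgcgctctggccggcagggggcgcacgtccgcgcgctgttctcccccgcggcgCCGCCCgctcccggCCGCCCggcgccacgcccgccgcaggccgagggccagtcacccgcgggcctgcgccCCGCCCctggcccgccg
The Sod2 promoter held 4 GC boxes and no core of the antioxidant response element, while that of Gclm held 4 GC boxes and 1 such core. A match of letters is a description of the sequence and no measurement of binding.

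The deposited values are log2 GCRMA values, on which a difference of 1 is a 2-fold change and values near 2 to 3 are the floor of the scale. Atxn1l itself read 3.23 and 3.65 in the null pools, against 6.31, 6.52 and 5.74 in the WT pools, on 1455507_s_at. On 1435921_at it read 3.08 and 3.99 in the null pools and 6.80, 6.69 and 4.98 in the WT pools, with WT array 3 the lowest of its group on both. Array medians were 3.03 to 3.07. Of 48 measured markers in 7 lists of blood cell types, 1 was called, while 4.48% of all genes had a called probe set. It was the progenitor marker Cd27, at 4.06 and 3.97 in the null pools and 3.47, 3.22 and 3.55 in the WT pools. The mean of the 4 multipotent progenitor markers was 5.23 in both null pools, above the 5.002, 4.998 and 5.132 of the WT pools. Of the other 3, Cd34 differed by 0.20 without overlap, Flt3 by -0.07 and Cd48 by -0.00139, and the part of this list in the results was not tested. Such a lack of overlap, in either direction, held for 14.2% of all probe sets and 32.6% of those with a mean of at least 5. The mean of 8 measured HSC markers was 8.22 to 8.25 in the null pools and 8.19 to 8.33 in the WT pools, and none was called. Among them Slamf1, which encodes the sorted marker CD150, read only 3.89 in null and 3.92 in WT HSCs on its probe set with the highest mean. The mean of 8 measured erythroid markers, of interest because red cells are rich in catalase and peroxiredoxin 2, was 3.14 to 3.16 in the null pools and 3.08 to 3.30 in the WT pools, with Hba-a1 at 1.90 and 1.91. The mean of 11 neutrophil and monocyte genes was 9.65 to 10.34 in the null pools and 9.56 to 10.26 in the WT pools, so that it varied within both genotypes. By the probe set with the highest mean, these genes ran from Itgam, at 2.54 in null and 2.53 in WT HSCs, to S100a8, at 13.65 and 13.42. S100a9 read 11.92 and 10.53 in the null pools and 9.77, 10.47 and 11.38 in the WT pools. The part of these genes' cells in the antioxidant readings was not tested. The means of the megakaryocyte, B cell and T and NK cell lists also overlapped between genotypes.

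To ask whether the genotypes differed, all 45037 probe sets were fitted with limma, and a probe set was called at p of at most 0.05 with a fold of at least 1.5. Of the 22 antioxidant probe sets 4 were called (18.2%), 3 higher and 1 lower in null HSCs. Among all probe sets 2.38% were called, 1.13% higher and 1.25% lower. Much of the array reads near the floor, and among the 12517 probe sets with a mean of at least 5 over all arrays the share called was 7.21%, against 3 of 17 antioxidant probe sets (17.6%). No antioxidant probe set had an adjusted p under 0.05 in limma (lowest adjusted p = 0.308), while 0.00222% of all probe sets did. An unadjusted p of at most 0.05 was found for 5 of the 22 (22.7%), against 5.59% of all probe sets.

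The null and WT values did not overlap for 8 of the 22 probe sets (36.4%), 4 higher and 4 lower in null HSCs. Among all probe sets this held for 14.2%, 6.75% higher and 7.5% lower. With a mean of at least 5 the shares were 7 of 17 (41.2%) and 32.6%. The median difference of the antioxidant probe sets, null minus WT, was 0.02 on the log2 scale, and that of all probe sets was -0.00254. For 13 probe sets the difference was positive and for 9 negative. Probe sets of a gene share a target and are not independent.

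**Figure D1:**
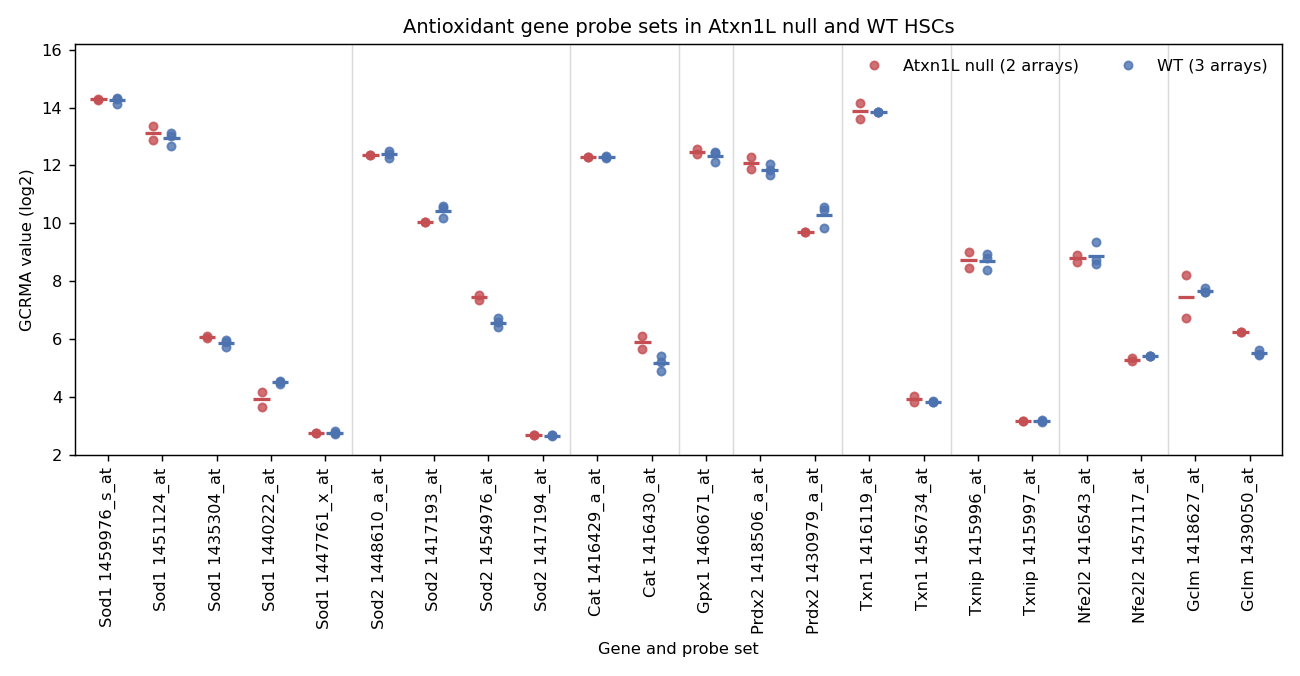
Log2 GCRMA values (vertical axis) of the 22 probe sets read as antioxidant genes (horizontal axis, grouped by gene and ordered by mean), with points for the arrays and a short line for the mean of a genotype, Atxn1L null left of WT. The null points of Sod2 1454976_at, near 7.44, and of Gclm 1439050_at, near 6.25, lie clear of the WT points, while the first probe set of every gene overlaps between genotypes.

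Superoxide dismutases showed unequal readings among their own probe sets. Sod2 encodes the manganese enzyme of mitochondria. Its 1454976_at read 7.52 and 7.36 in the null pools, against 6.41, 6.72 and 6.59 in the WT pools. Both null pools exceeded every WT pool. The mean was 7.44 ± 0.12 (SD, n = 2) in null HSCs and 6.57 ± 0.15 (SD, n = 3) in WT HSCs, a rise by a fold of 1.82 (0.87 ± 0.12 on the log2 scale, with the standard error, and adjusted p = 0.372 in limma).

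The other Sod2 probe sets did not rise. The one with the highest mean, 1448610_a_at, read 12.38 and 12.37 in the null pools and 12.51, 12.26 and 12.40 in the WT pools, with the null values inside the WT range. Its difference of -0.02 had a 95% interval of -0.26 to 0.23. A further one, 1417193_at, read 10.05 and 10.04 in the null pools, below the 10.52, 10.17 and 10.61 of the WT pools, a difference of -0.39 with an interval of -0.82 to 0.05 that was not called. The last, 1417194_at, was at the floor, at 2.67 in both genotypes.

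Sod1, the copper and zinc enzyme of the cytosol, had 5 probe sets. The one with the highest mean, 1459976_s_at, read 14.30 and 14.28 in the null pools and 14.13, 14.30 and 14.33 in the WT pools, a difference of 0.04 with an interval of -0.17 to 0.24. The genotypes overlapped. The next, 1451124_at, read 13.35 and 12.88 in null and 12.68, 13.12 and 13.03 in WT pools and also overlapped. On 1435304_at the null pools, at 6.03 and 6.12, lay above the WT pools, at 5.96, 5.89 and 5.73, with a difference of 0.22 that was not called.

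The called Sod1 probe set was a dim one in the opposite direction. On 1440222_at the null pools read 4.18 and 3.66 and the WT pools 4.51, 4.56 and 4.46. Both null pools were below every WT pool, and the fall of 0.59 on the log2 scale (standard error 0.18 and adjusted p = 0.787 in limma) was a fold of 1.504, just past the required 1.5. The last Sod1 probe set, 1447761_x_at, read 2.74 in null and 2.76 in WT HSCs.

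Of the enzymes that remove hydrogen peroxide, catalase differed on 1 of 2 probe sets. Cat 1416430_at read 6.12 and 5.66 in the null pools, against 4.89, 5.43 and 5.21 in the WT pools. Both null pools were higher than every WT pool, with a rise by a fold of 1.64 (0.71 ± 0.24 on the log2 scale, with the standard error, and adjusted p = 0.846 in limma). The other, 1416429_a_at, read 12.30 in both null pools and 12.27, 12.33 and 12.30 in the WT pools. Its difference of -0.00324 had a 95% interval of -0.07 to 0.07, the narrowest among the probe sets with the highest mean of their gene. Both null pools and WT pool 3 held the same deposited value, so that interval draws on no spread among the null pools.

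Gpx1, the cytosolic glutathione peroxidase, had a single probe set, which read 12.56 and 12.38 in the null pools and 12.12, 12.44 and 12.47 in the WT pools. The genotypes overlapped, and the difference of 0.13 had an interval of -0.27 to 0.52, whose upper end is a fold of 1.44.

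Prdx2, a cytosolic peroxiredoxin, was read by a pair of probe sets with differences of opposite sign. On 1418506_a_at the null pools read 12.29 and 11.86 and the WT pools 11.86, 12.04 and 11.68, overlapping, with a difference of 0.21. On 1430979_a_at the null pools read 9.72 and 9.70, below the 10.46, 9.85 and 10.56 of the WT pools. That difference of -0.58 was a fold of 1.499, just short of the required 1.5, and its p was above 0.05, so that it was not called.

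**Figure D2:**
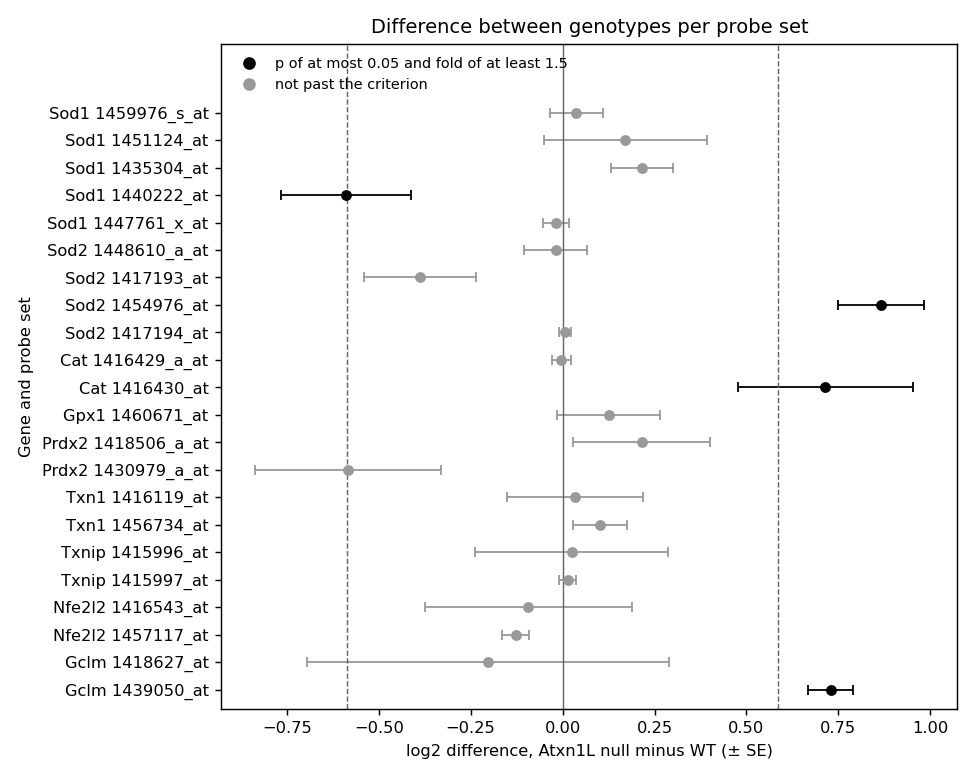
Log2 difference between the means of Atxn1L null and WT HSCs for each of the 22 probe sets (horizontal axis, with the standard error from limma as a bar), black where the probe set was called and grey otherwise, with dashed lines at a fold of 1.5. The called probe sets are Sod2 1454976_at at 0.87, Gclm 1439050_at at 0.73 and Cat 1416430_at at 0.71 to the right and Sod1 1440222_at at -0.59 to the left.

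In the thioredoxin system, nothing was called. Txn1, the cytosolic thioredoxin, read 14.15 and 13.60 on 1416119_at in the null pools, against 13.85, 13.84 and 13.84 in the WT pools. The null pools lay on either side of the tightly grouped WT pools, with a difference of 0.03 and an interval of -0.49 to 0.56. Its other probe set, 1456734_at, read 3.94 in null and 3.84 in WT HSCs.

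Txnip, the inhibitor that binds thioredoxin and whose loss in mice is known to reduce HSC quiescence, read 8.46 and 9.01 on 1415996_at in the null pools and 8.40, 8.95 and 8.80 in the WT pools. The values overlapped, with a difference of 0.02 and an interval of -0.72 to 0.77. On 1415997_at it read 3.18 in null and 3.17 in WT HSCs, near the floor.

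Gclm, the modifier subunit of the enzyme that catalyzes the first step of glutathione synthesis, had the lowest p of all antioxidant probe sets. On 1439050_at it read 6.26 and 6.24 in the null pools, against 5.48, 5.62 and 5.46 in the WT pools. The null pools were nearly equal and both above every WT pool. The mean was 6.25 ± 0.02 (SD, n = 2) in null HSCs and 5.52 ± 0.09 (SD, n = 3) in WT HSCs, a rise by a fold of 1.66 (0.73 ± 0.06 on the log2 scale, with the standard error, and adjusted p = 0.308 in limma).

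The other Gclm probe set, 1418627_at, had the largest spread of the 22. It read 8.20 and 6.73 in the null pools, against 7.77, 7.61 and 7.61 in the WT pools, so that the null pools lay above and below all WT pools. The SD of 1.04 within the null genotype compares with 0.09 in the WT genotype. The difference of -0.20 had an interval of -1.60 to 1.20.

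Nfe2l2 was not called on either probe set. On 1416543_at it read 8.68 and 8.90 in the null pools and 9.35, 8.72 and 8.58 in the WT pools, overlapping, with a difference of -0.09. On 1457117_at the null pools read 5.34 and 5.24, below the WT pools at 5.42, 5.40 and 5.43. That difference of -0.13 (adjusted p = 0.763 in limma) had an unadjusted p under 0.05 but was a fold of 1.09, below the fold required.

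Read by the probe set with the highest mean, the 9 genes differed by -0.20 to 0.21 with a median of 0.02, 5 of them positive and 4 negative. By this reading 0 of 9 were called, against 3% of all genes, and all 9 overlapped between genotypes. All 4 calls came from the 13 other probe sets. With over 1 probe set, 5 of 8 genes had differences of both signs. The 3' minus 5' signal of control probe sets is a sign of transcript length in amplified RNA. For Gapdh it was 7.33 and 7.21 in the null pools and 5.89, 6.02 and 5.92 in the WT pools. For beta-actin it was 7.43 and 7.28 in the null pools and 6.71, 6.60 and 6.40 in the WT pools. Which part of its transcript each antioxidant probe set reads was not looked up here. The part of these control differences in the calls was not tested.

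With each array left out in turn, the rises of Gclm 1439050_at (0.70 to 0.78) and Sod2 1454976_at (0.78 to 0.95) were called in all 5 fits. The Cat rise of 1416430_at ran from 0.48 to 0.95 and its call ended without null array 1 or without WT array 1 or 3. The Sod1 fall of 1440222_at ran from -0.85 to -0.33 and was called only without null array 1. In the opposite sense, the fall of Gclm 1418627_at was called without null array 1, at -0.94, and that of Prdx2 1430979_a_at without WT array 2, at -0.80.

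**Figure D3:**
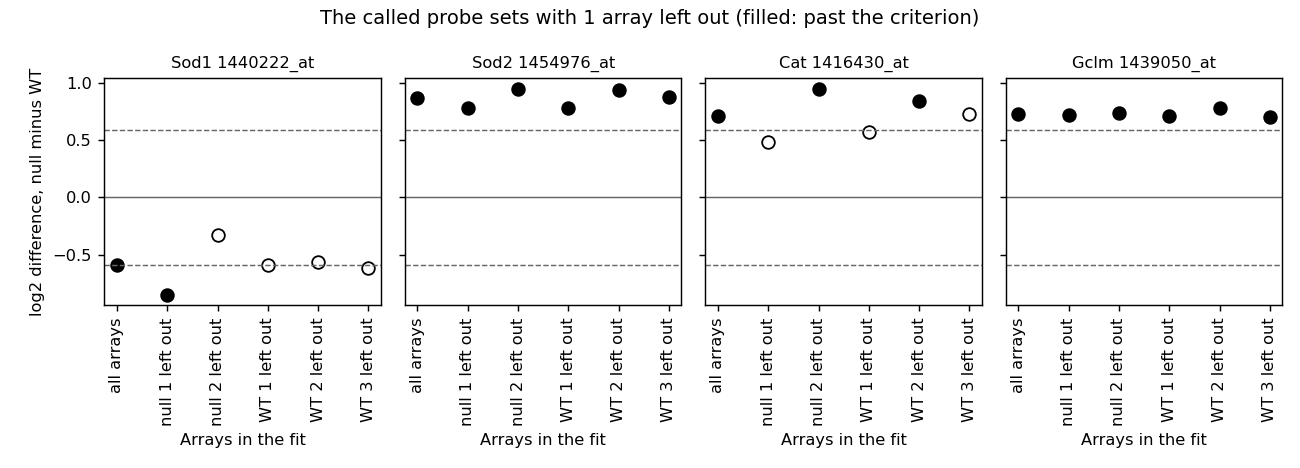
Log2 difference, null minus WT (vertical axis), of the 4 called probe sets with all arrays and with each array left out (horizontal axis), filled where p was at most 0.05 and the fold at least 1.5, with dashed lines at a fold of 1.5. Gclm and Sod2 stay filled throughout, Cat runs from 0.48 to 0.95 and Sod1 from -0.85 to -0.33 with open points.

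Prdx1, a cytosolic peroxiredoxin, could be read only together with Gm21399. On the shared probe set with the highest mean, 1434731_x_at, the null pools read 12.35 and 12.22, against 11.87, 12.12 and 10.71 in the WT pools. The null pools were above every WT pool there and on 4 of the 5 shared probe sets, which have a common target. In either direction, 14.2% of all probe sets and 32.6% of those with a mean of at least 5 did not overlap. WT pool 3 was the lowest on all 5. The differences were 0.35 to 0.72, none of them called, with adjusted p = 1 in limma for all 5. Without WT array 3 they were 0.07 to 0.45.

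The wider set of redox genes held 77 further genes in 7 lists, of which 70 had a probe set of their own. Of these 70 genes 4 had a called probe set (5.71%), 1 higher and 3 lower in null HSCs. Among all genes 4.48% had one, 2.3% higher and 2.21% lower. The median difference over their 149 probe sets was -0.00173. Null and WT values did not overlap for 31 of the 149 (20.8%), against 14.2% of all probe sets and 32.6% of those with a mean of at least 5. None of the 149 had an adjusted p under 0.05 in limma. An unadjusted p of at most 0.05 was found for 10 of the 149, against 5.59% of all probe sets.

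In the list of genes that control Nrf2 or are its known targets, 2 of 16 further genes were lower and none was higher. Among all genes 2.21% were called lower and 2.3% higher. Sqstm1, the autophagy receptor p62 that sequesters Keap1, read 7.73 and 7.78 on 1450957_a_at in the null pools, against 8.62, 8.59 and 8.43 in the WT pools. The groups did not overlap, and the fold of 1.73 (log2 difference -0.79, standard error 0.07, limma adjusted p = 0.312) was called with any single array left out. Its other probe set was dim, at 2.62 in null and 3.57 in WT HSCs, and not called. Keap1, which holds Nrf2 in the cytosol for degradation, read 10.50 and 10.84 on 1450746_at in the null pools and 11.34, 11.06 and 11.43 in the WT pools. Every null value was below every WT value, a fall of 0.61 on the log2 scale (standard error 0.17, limma adjusted p = 0.736). The Keap1 call ended without null array 1, without WT array 1 or 3, with the values quantile-normalized again, with array weights and with the replicate number as a block. The other Keap1 probe set was at the floor, at 2.13 in both genotypes.

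Of the thioredoxin and glutaredoxin system, 1 of 9 further genes was higher and 1 lower, against 2.3% and 2.21% of all genes. Txnl1, a thioredoxin-like protein bound to the proteasome, read 8.56 and 8.48 on 1423299_at in the null pools, against 7.95, 7.91 and 7.47 in the WT pools. The groups did not overlap, and the log2 difference was 0.74 (standard error 0.18, limma adjusted p = 0.647). Its probe set with the highest mean differed by 0.70 in the same direction without a call (adjusted p = 0.952 in limma). The Txnl1 call ended without either null array. Glrx2, a mitochondrial glutaredoxin, read 9.08 and 9.61 on 1422998_a_at in the null pools and 10.30, 9.83 and 10.48 in the WT pools, a difference of -0.85 (standard error 0.28, limma adjusted p = 0.845). The pools were separate by genotype. The Glrx2 call ended without null array 1, without WT array 1 or 3, with array weights and with the replicate number as a block, and its other probe sets differed by -0.94 and -0.16 without a call.

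**Figure D4:**
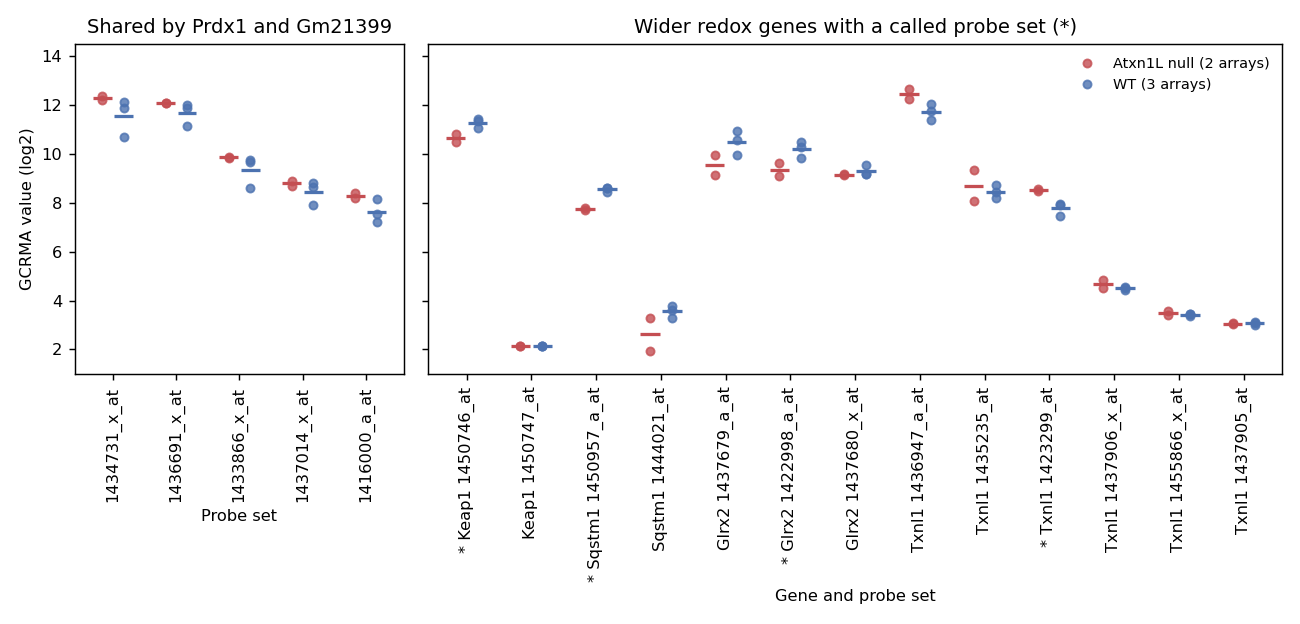
Log2 GCRMA values (vertical axis) per array of the 5 probe sets shared by Prdx1 and Gm21399 (left) and of all probe sets of Keap1, Sqstm1, Glrx2 and Txnl1 (right, with an asterisk on the called ones), Atxn1L null left of WT and a bar at each mean. WT array 3 lies lowest on all 5 probe sets at the left, and Sqstm1 1450957_a_at reads 7.75 in null and 8.55 in WT HSCs on average.

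The other lists held no called gene. Of the superoxide dismutase list, Ccs, the copper chaperone of Sod1, read 8.97 in null and 9.17 in WT HSCs on average, and the extracellular Sod3 was at the floor, at 2.42 and 2.43. Gpx4, which reduces lipid peroxides, read 11.64 and 11.40 in the same order on its probe set with the highest mean, and the gastrointestinal Gpx2 3.72 and 3.65. Prdx4, the peroxiredoxin of the endoplasmic reticulum, averaged 8.75 in null and 8.49 in WT HSCs. Srxn1, the sulfiredoxin that repairs overoxidized peroxiredoxins, read 6.03 and 6.59 in the null pools, above the 5.64, 5.84 and 5.78 of the WT pools, without reaching the fold or the p (log2 difference 0.56, adjusted p = 0.904 in limma).

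For glutathione synthesis, recycling and transfer, none of 14 further genes was called, with Mgst2 at 10.69 in null and 11.12 in WT HSCs and Gsto1 at 10.12 and 10.17. Of 19 genes for sources and control of reactive oxygen species, among them the NADPH oxidase subunits, the FoxO factors and Atm, none was called in either direction. Of this list Park7, a redox-sensitive chaperone, read 12.34 in null and 12.23 in WT HSCs, and the base excision repair gene Apex1 read 11.84 and 11.82. Meis1 differed in opposite directions on 2 probe sets, by -0.46 on 1443260_at and by 0.50 on 1450992_a_at, both below the fold required. Among the list's 48 probe sets these 2 had an unadjusted p of at most 0.05 in limma, against 5.59% of all probe sets. Their adjusted p in limma was 0.767 and 0.528.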

How the data were processed

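RNA of sorted HSC pools was amplified, labelled and hybridized to 5 arrays. Per the labels, the authors ran GCRMA (version not given in the sources used here), which corrects background, applies quantile normalization and summarizes each probe set, and deposited log2 values for 45101 probe sets. The log base was taken from their range. Quantile normalization hides any shift shared by all genes.

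Here 64 control probe sets were left out, and 45037 were fitted with lmFit and eBayes in limma 3.58.1 under R 4.3.3, with a mean per genotype and no filter. The criterion, p at or under 0.05 together with a 1.5-fold change, follows the study's text, and Benjamini-Hochberg adjustment ran over all 45037. Intervals are 95% intervals from the moderated fit, with 3.77 degrees of freedom. With 5 arrays the smallest exact permutation p is 0.1, and their number limits the precision. The platform annotation gives 34945 probe sets 1 gene, 932 several and 9160 none, and 0 symbols changed through the Entrez IDs. In the redox lists, Prdx1 included, 8 genes had no probe set of their own, and among the markers 9.

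The members, lists and promoter motifs were chosen with earlier results of these data known. All members were named, with every wider gene that had a called probe set and, in lists with none, the 2 brightest further genes. Meis1 was named in addition, for its unadjusted p. The fit was tested on simulated data. The alternatives were a variance trend, array weights, renewed normalization, filters, other criteria, other readings of a gene, a replicate block, and each array left out in turn.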

Additional observations from a re-analysis of the deposited data

How the results depend on the processing

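The 4 calls among the antioxidant probe sets were 3 to 4 in number under a variance trend, array weights, renewed quantile normalization, median centring, a minimum mean of 5 and without cross-hybridizing probe sets, and 5 at p of at most 0.05 alone. They were 0 with a fold of at least 2, 0 at an adjusted p under 0.05, and 2 to 4 with 1 array left out (2 without WT array 1 or 3). Whether the replicate numbers pair the arrays could not be decided. The correlations of deviations between same-numbered arrays were -0.03 and -0.26. With 2 null arrays the deviations from their mean are equal and opposite, so these correlations are not separate checks. In the fit with the replicate number as a block, WT array 3 has no partner and does not enter the difference. That fit left 1 call, Gclm 1439050_at, while Sod2 1454976_at, at 0.88, was no longer called. The Cat call also ended with array weights, at 0.46. The wider genes called were 9 at p of at most 0.05 alone, 0 with a fold of at least 2 or at an adjusted p under 0.05, 2 by the probe set with the highest mean, 1 by the mean of the probe sets, and 2 to 7 with 1 array left out (2 without WT array 1, 7 without either null array). Over all probe sets, 2517 passed p alone, 230 the higher fold, 1 the adjusted p, and 709 to 1948 with 1 array left out (709 without WT array 1 and 1948 without null array 2).

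No called probe set changed sign. Uncalled ones did. With array weights the difference was -0.0108 for Sod1 1459976_s_at, -0.00326 for Sod1 1451124_at, 0.11 for Sod2 1448610_a_at, -0.00403 for Sod2 1417194_at, -0.21 for Txnip 1415996_at, -0.0015 for Txnip 1415997_at and 0.0689 for Nfe2l2 1416543_at, and with the replicate block 0.00981 for Sod1 1447761_x_at. The mean of a gene's probe sets was -0.0369 for Sod1, 0.12 for Sod2, 0.36 for Cat, -0.18 for Prdx2 and 0.26 for Gclm, each of the other sign than its probe set with the highest mean. With 1 array left out the ranges that crossed 0 were -0.0245 to 0.0746 for Sod1 1459976_s_at, -0.0669 to 0.41 for Sod1 1451124_at, -0.0403 to 0.00981 for Sod1 1447761_x_at, -0.0848 to 0.0432 for Sod2 1448610_a_at, -0.00431 to 0.0113 for Sod2 1417194_at, -0.0198 to 0.0149 for Cat 1416429_a_at, -0.24 to 0.31 for Txn1 1416119_at, -0.00857 to 0.21 for Txn1 1456734_at, -0.25 to 0.30 for Txnip 1415996_at, -0.00474 to 0.0242 for Txnip 1415997_at, -0.24 to 0.14 for Nfe2l2 1416543_at and -0.94 to 0.53 for Gclm 1418627_at. The causes were not tested.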
